A study of Mus musculus with 18 samples.

Results

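The AP-1 genes described here are 9 of the 24421 genes in the table of counts: Fos, Fosb, Fosl1 and Fosl2, which encode the FOS proteins, Jun, Junb and Jund, which encode the JUN proteins, and Atf3 and Batf3, relatives that pair with JUN proteins. They were found by gene symbol. They were chosen by their known family and also with earlier results of these libraries in view, so their own levels and changes are given as a description, without P-values. All 9 passed the filter on low counts, which left 13507 genes to test. The RNA came from 4T1, a mouse mammary carcinoma cell line whose labels give the strain BALB/cfC3H and a wild type genotype, and from 4T1R1 and 4T1R2, populations of 4T1 selected separately with 17-DMAG, an inhibitor of the chaperone HSP90. Each was sequenced untreated and after 1.5 µM 17-DMAG, which made 6 groups of 3 libraries. The sample records give 48 h of treatment and the series record gives 2 h, so the duration is uncertain. The sample records give 3 rounds of selection and the series record describes the selection otherwise. The resistant lines are populations, not single clones. In GENCODE coordinates of GRCm38, Fos lies at chr12:85473890-85477273, Fosb at chr7:19302696-19310051, Fosl1 at chr19:5447547-5455946, Fosl2 at chr5:32135801-32157842, Jun at chr4:95049034-95052222, Junb at chr8:84974484-84978718, Jund at chr8:70698949-70700616, Atf3 at chr1:191170296-191218039 and Batf3 at chr1:191097847-191108945, all protein-coding. The authors counted reads with annotation from UCSC, whose exons may differ from those of GENCODE.

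AP-1 is a pair of basic leucine zipper proteins, usually one FOS and one JUN protein, that binds DNA at TGACTCA. FOS proteins cannot pair with each other, whereas JUN proteins can, and the makeup of the pair decides how strongly it activates its targets. Many of these genes are immediate early genes, transcribed within minutes of a growth factor or stress signal through MAP kinases, and their transcripts are short-lived. In carcinoma cells AP-1 is known for driving proteases, cytokines and growth factors used in invasion.

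The promoters of Fos, Fosb, Junb and Jun are shown because these 4 genes had the lowest level relative to untreated cells after 17-DMAG in 4T1, and that of Atf3 because it did not fall there. The printed windows are chr12:85473640-85473939 (plus strand) for Fos, chr7:19309996-19310295 (minus) for Fosb, chr4:95052173-95052472 (minus) for Jun, chr8:84978699-84978998 (minus) for Junb and chr1:191183284-191183583 (minus) for Atf3. Each sequence runs 5′ to 3′ on the gene's strand from 250 bases before the RefSeq start site through the first 50 transcribed bases (GRCm38.p6), and 8 of the 9 genes had an entry. Capitals mark matches, on either strand, to the letters TGACGT of the cAMP response element, the site TGACATCA of the Jun promoter, the TATA box (TATAAA), the CCAAT box or the NF-kappaB site.
Fos: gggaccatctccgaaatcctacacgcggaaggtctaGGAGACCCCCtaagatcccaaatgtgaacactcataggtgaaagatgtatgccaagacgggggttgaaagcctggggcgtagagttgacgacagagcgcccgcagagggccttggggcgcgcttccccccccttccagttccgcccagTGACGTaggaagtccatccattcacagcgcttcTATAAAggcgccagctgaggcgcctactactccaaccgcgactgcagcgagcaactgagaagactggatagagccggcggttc
Fosb: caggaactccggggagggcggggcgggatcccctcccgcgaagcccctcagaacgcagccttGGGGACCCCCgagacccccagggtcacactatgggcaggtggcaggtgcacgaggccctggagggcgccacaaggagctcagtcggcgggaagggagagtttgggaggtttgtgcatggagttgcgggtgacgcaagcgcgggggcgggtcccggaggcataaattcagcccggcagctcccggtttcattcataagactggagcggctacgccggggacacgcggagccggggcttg
Jun: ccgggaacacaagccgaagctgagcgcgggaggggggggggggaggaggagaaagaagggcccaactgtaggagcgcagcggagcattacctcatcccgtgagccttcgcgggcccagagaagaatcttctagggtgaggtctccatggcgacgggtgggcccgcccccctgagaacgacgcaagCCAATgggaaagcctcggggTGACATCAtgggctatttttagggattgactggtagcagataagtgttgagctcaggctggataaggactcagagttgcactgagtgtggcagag
Junb: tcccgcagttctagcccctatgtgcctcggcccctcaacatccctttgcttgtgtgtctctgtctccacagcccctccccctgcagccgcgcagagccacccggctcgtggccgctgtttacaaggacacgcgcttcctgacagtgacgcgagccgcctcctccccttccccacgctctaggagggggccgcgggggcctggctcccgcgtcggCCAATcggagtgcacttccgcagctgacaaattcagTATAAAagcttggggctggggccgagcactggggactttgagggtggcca
Atf3: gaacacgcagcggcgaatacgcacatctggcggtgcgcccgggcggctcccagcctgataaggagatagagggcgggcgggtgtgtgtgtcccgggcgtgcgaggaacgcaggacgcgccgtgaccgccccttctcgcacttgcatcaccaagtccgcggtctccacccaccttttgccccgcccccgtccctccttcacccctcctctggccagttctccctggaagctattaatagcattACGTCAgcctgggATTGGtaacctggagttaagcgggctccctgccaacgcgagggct

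The Fos promoter held TGACGT, the conserved part of the cAMP response element, with its first base at position -66, counted from the start site, and TATAAA at position -33. The Jun promoter held TGACATCA, the form of the AP-1 site known from this gene, at position -45. Atf3 held TGACGT on the opposite strand at position -8. The NF-kappaB site was matched in Fos at position -214 and in Fosb at position -188. Of the 8 promoters, 0 held TGACTCA, which 5.2% of all 32851 RefSeq promoters of this length held, and 0 held the full element TGACGTCA, against 1.79%. TGACGT was in 2 of the 8, against 7.51%, and TGACATCA in 1, against 3.62%. TATAAA was in 2, against 13.6%, CCAAT in 3, against 37.4%, and the NF-kappaB site in 3, against 5.8%. The TATAAA of Junb began at position 1, the first transcribed base, unlike that of Fos before the start site. The CCAAT match of Atf3 also lay past the start site, at position 6 on the opposite strand. The CArG box that serum response factor binds was in 0 of the 8, against 1.63%, and the heat shock element in 0, against 0.603%. Sequence more than 250 bases before the start site was not searched, so these values do not show that a gene lacks such a site. The printed Atf3 start site lies inside the span of the gene in the GENCODE annotation. Of the windows not printed, that of Jund, chr8:70697489-70697788, lies wholly before the GENCODE gene, which starts at 70698949. Those of Fosl2 (chr5:32136222-32136521) and Batf3 (chr1:191098164-191098463) lie wholly inside their genes. The counts over the 8 include these windows, which may not be the promoters used in these cells. The GC box GGGCGG, not in capitals, was in 6, against 35.7%. These matches describe letters in a window and were not tested as sites.

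The libraries held 23354461 to 55094630 counts. Under 17-DMAG, 4T1 replicates 1 and 2 gave counts that differed less than those of any other replicate pair. Their chi-square per gene was 1.1, against 2.04 to 2.22 in the others. These 2 libraries were therefore averaged into 1 sample, which left 17 samples, with n = 2 for that group and n = 3 for the others. Levels are normalized counts, that is, counts scaled to the mean effective library size of 30971006. Keratins 7, 8, 18 and 19, Epcam and Cdh1, which mark mammary epithelium, were expressed in every group, with summed levels of 76160 to 77560 in 4T1, 51350 to 53920 in 4T1R1 and 59350 to 62810 in 4T1R2. Of 4 fibroblast markers only Pdgfra passed the filter, with Lum at 0 in every library and Dcn and Col3a1 under 1 in every group. Their summed level moved with treatment, from 668.9 to 740.6 in untreated and 375 to 396.4 in treated 4T1, 809.7 to 871 and 690.3 to 741.4 in 4T1R1, and 902.5 to 1027 and 780.2 to 887.2 in 4T1R2. Its part in the results was not tested. The 4 leukocyte markers together reached at most 23.47 and the 3 endothelial markers 17.54. A smaller number of expressing cells and less RNA per cell cannot be told apart in such bulk samples. The library names of 4T1R1 carry another number run than those of 4T1 and 4T1R2, so levels of 4T1R1 against either of them cannot be told apart from that series of libraries. Within a population the names share 1 number run, but untreated and treated libraries hold separate blocks of numbers in it. The labels name no batch, so the names do not show that responses are free of one.

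Fos and Fosb, the classical immediate early FOS genes, fell far in 17-DMAG-treated 4T1, and in neither resistant population did they go as low. Fos stood at 621.5, 576 and 977.2 normalized counts in untreated 4T1 and at 35 and 39.96 after 17-DMAG. In 4T1R1 it stood at 392.7, 394.2 and 312 untreated and at 213.8, 396.7 and 328.7 treated. In 4T1R2 it stood at 1177, 1338 and 1405 untreated and at 789.5, 708.9 and 651.4 treated. The treated 4T1 libraries were thus far below all others, the 4T1R1 libraries overlapped with and without the drug, and those of 4T1R2 did not. The fitted log2 fold change was -4.29 ± 0.236 (SE) in 4T1, a 19.5-fold lower level, -0.233 ± 0.154 in 4T1R1 and -0.863 ± 0.124 in 4T1R2. Among the 13507 genes tested Fos ranked 14 from the lowest value in 4T1. The value in 4T1R1 did not pass the threshold, an adjusted P under 0.05 over all genes tested, but passed it at -0.444 without treated replicate 2 and at -0.235 without the filter on low counts.

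Fosb, the close relative of Fos, also fell in 4T1, by less. Its normalized counts were 1840, 1729 and 2455 in untreated 4T1 and 336 and 357.5 after 17-DMAG. They were 929.5, 1023 and 822.7 in untreated and 737.2, 1184 and 967.2 in treated 4T1R1. In 4T1R2 they were 1695, 2092 and 2523 untreated and 1669, 1493 and 1661 treated. The treated 4T1 libraries were again the lowest of all, and treated 4T1R1 overlapped its untreated libraries on both sides. Log2 fold changes were -2.54 ± 0.148 in 4T1, 0.0553 ± 0.12 in 4T1R1 and -0.383 ± 0.107 in 4T1R2. The fall in 4T1R2 did not pass the threshold with DESeq2 or without untreated replicate 2 or 3 or treated replicate 2, and its size was -0.227 without untreated replicate 3. In both genes untreated 4T1 replicate 3 was the highest library of its group and treated 4T1R1 replicate 1 the lowest of its group.

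Fosl1 and Fosl2, which encode FRA1 and FRA2, the FOS proteins that lack a strong activation domain and persist longer after stimulation, did not pass the threshold in 4T1. Fosl1 stood at 935.3, 881.6 and 908.9 normalized counts in untreated and at 875.9 and 844.6 in treated 4T1. It stood at 1017, 1250 and 1111 in untreated and at 880.1, 1041 and 942.8 in treated 4T1R1. In 4T1R2 the 6 libraries ran from 815.4 to 908.2. The log2 fold changes of -0.0776 ± 0.0756 in 4T1 and 0.0238 ± 0.0687 in 4T1R2 did not pass the threshold. The value of -0.238 ± 0.0662 in 4T1R1 did, but its groups overlapped and it fell short of the threshold without untreated replicate 2, at -0.158, or without treated replicate 1. In the GENCODE annotation 1163 bases of Fosl1 exons overlap those of Ccdc85b on the opposite strand. Use of strand in the counting is not stated, so reads of the 2 genes may be mixed. The annotation used for counting was another and may not hold the same overlap. Fosl2, in 4T1, stood at 3080, 3180 and 3234 normalized counts untreated and 3280 and 3306 treated. In 4T1R1 it fell from 3187, 3277 and 3242 to 2533, 2602 and 2599, with no overlap. In 4T1R2 it stood at 3007, 2989 and 3176 and then at 2814, 3011 and 2969. The value of -0.328 ± 0.0375 on the log2 scale in 4T1R1 was the only response of Fosl2 that passed the threshold, and the values in 4T1 and 4T1R2 were 0.0571 ± 0.0411 and -0.0604 ± 0.0374.

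**Figure D1:**
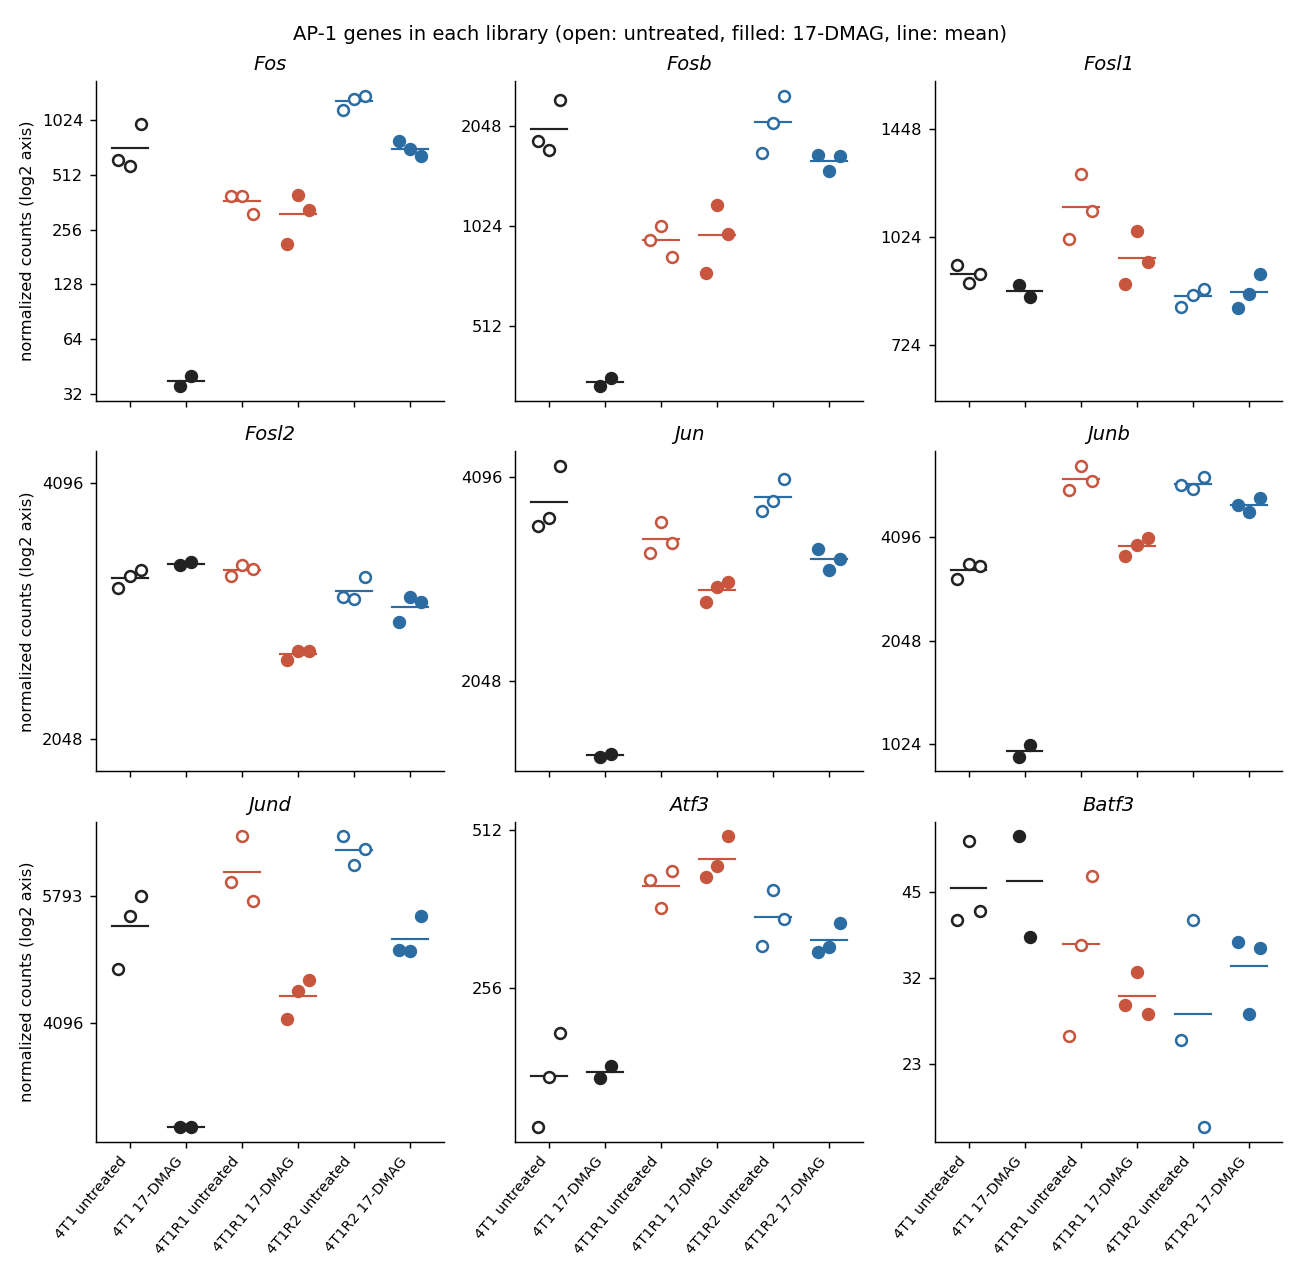
Normalized counts (log2 axes, a different range in each panel) of the 9 AP-1 genes in each library of the 6 groups; open points are untreated and filled points 17-DMAG-treated libraries, lines are group means, and treated 4T1 has 2 points because replicates 1 and 2 were averaged. The treated 4T1 points of Fos (35 and 39.96), Fosb, Jun, Junb and Jund lie below all other libraries, those of Fosl1, Fosl2, Atf3 and Batf3 do not.

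All 3 JUN genes fell in all 3 populations, and each fell most in 4T1. Jun, the founding JUN gene and the main target of the JNK kinases, stood at 3470, 3565 and 4253 normalized counts in untreated 4T1 and at 1582 and 1597 after 17-DMAG. In 4T1R1 it went from 3168, 3520 and 3270 to 2678, 2815 and 2865. In 4T1R2 it went from 3642, 3779 and 4069 to 3207, 2990 and 3102. Untreated and treated libraries did not overlap in any population. The log2 fold changes were -1.24 ± 0.0614, -0.253 ± 0.0518 and -0.304 ± 0.0511 in 4T1, 4T1R1 and 4T1R2.

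Junb, which encodes the JUN protein that can restrain JUN's activity, fell most of the 3 genes in 4T1 and 4T1R1 and least in 4T1R2. Untreated 4T1 held 3099, 3423 and 3367 normalized counts and treated 4T1 939.9 and 1016. Untreated 4T1R1 held 5627, 6607 and 5970 and treated 4T1R1 3617, 3899 and 4063. Untreated 4T1R2 held 5798, 5657 and 6149 and treated 4T1R2 5094, 4844 and 5331. Every treated library of the resistant populations was therefore above every untreated library of 4T1. Log2 fold changes were -1.76 ± 0.0627 in 4T1, -0.653 ± 0.0468 in 4T1R1 and -0.206 ± 0.0461 in 4T1R2. The level after 17-DMAG was 29.6%, 63.6% and 86.7% of the untreated level of the same population.

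Jund, usually the most constant JUN gene, showed the smallest fall of the 3 in 4T1. In 4T1R1 it fell more than Jun, and in 4T1R2 it fell most of the 3. Its normalized counts went from 4745, 5490 and 5798 to 3080 and 3077 in 4T1. They went from 6020, 6823 and 5722 to 4142, 4468 and 4602 in 4T1R1, and from 6829, 6303 and 6592 to 4994, 4990 and 5492 in 4T1R2. No treated library reached an untreated one of its population. Log2 fold changes were -0.796 ± 0.061, -0.491 ± 0.0524 and -0.351 ± 0.0518. Exons on the opposite strand overlap 877 bases of Jund (Gm11175), 232 bases of Jun (Junos) and 173 bases of Junb (Prdx2), with the same limit as for Fosl1.

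Atf3, which encodes a stress-induced bZIP factor that often represses AP-1 targets, was higher in both resistant populations and did not pass the threshold after 17-DMAG. It stood at 138.8, 173.1 and 209.7 normalized counts in untreated and at 172.2 and 181.5 in treated 4T1. In 4T1R1 it stood at 411.2, 362.9 and 427.1 untreated and at 416.1, 435.9 and 498 treated. In 4T1R2 it stood at 307.9, 393.8 and 346.2 untreated and at 299.3, 306.4 and 339.5 treated. All 12 libraries of the resistant populations were above all 4T1 libraries, and treated and untreated libraries overlapped in each population. Log2 fold changes after 17-DMAG were 0.0177 ± 0.142, 0.164 ± 0.104 and -0.142 ± 0.11 in 4T1, 4T1R1 and 4T1R2, and 0 of them passed the threshold. Batf3, known for its part in dendritic cell development, was near the limit of useful counting, with 17.54 to 56.73 normalized counts over all libraries and no response past the threshold.

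**Figure D2:**
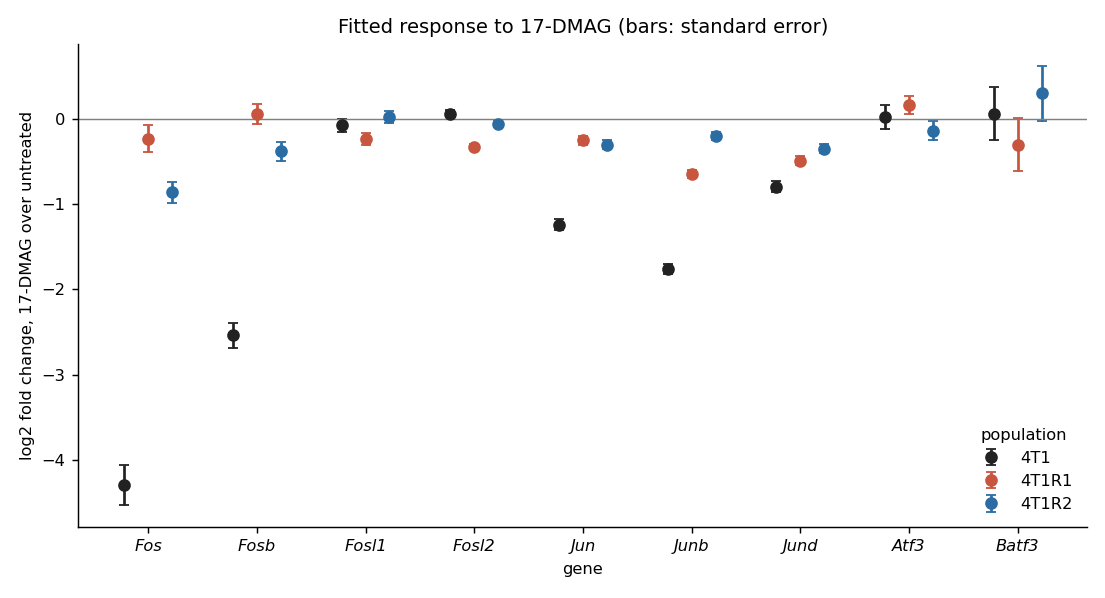
Fitted log2 fold change of 17-DMAG-treated over untreated libraries (vertical axis) for the 9 genes in 4T1, 4T1R1 and 4T1R2; bars are standard errors. Fos reached -4.29 in 4T1, and the points of Fos, Fosb, Jun, Junb and Jund in 4T1 lie below those of both resistant populations, whereas those of Atf3 and Batf3 lie between -0.306 and 0.299.

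After 17-DMAG in 4T1, 5 members were lower and 0 higher, among all genes tested of which 17.9% were lower and 18.4% higher. In 4T1R1 again 5 were lower and 0 higher, against 14.3% and 13.9% of all genes. In 4T1R2 also 5 were lower and 0 higher, against 4.35% and 6.18%. With edgeR's quasi-likelihood test 0 members were higher in any of the 3 also at an unadjusted P under 0.05, and 0 with DESeq2 at an adjusted P under 0.05. Jun, Junb and Jund were among the 5 in each population. Fos and Fosb completed them in 4T1 and 4T1R2, and Fosl1 and Fosl2 in 4T1R1. The median log2 fold change of the 9 was -0.796, -0.253 and -0.206 in 4T1, 4T1R1 and 4T1R2, where the median of all genes was 0.000645, -0.00855 and -0.00188. Since the members were selected on results of the same contrasts, nothing is read from these counts.

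The responses of the resistant populations were compared with that of 4T1 in the same fit, as the difference between 2 log2 fold changes. Both differences share the 4T1 libraries. In 4T1R1 the value of Fos was higher than in 4T1 by 4.05 ± 0.296 on the log2 scale, that of Fosb by 2.59 ± 0.191, Junb by 1.1 ± 0.0782, Jun by 0.992 ± 0.08 and Jund by 0.305 ± 0.08. For Fosl2 it was -0.385 ± 0.0556, the single member with a lower value in 4T1R1 whose difference passed the threshold. In 4T1R2 the difference was 3.42 ± 0.284 for Fos, 2.16 ± 0.184 for Fosb, 1.55 ± 0.0778 for Junb, 0.94 ± 0.0795 for Jun and 0.445 ± 0.0796 for Jund. That made 5 members higher and 1 lower in the first difference, where 9.16% and 9.08% of all genes were, and 5 higher and 0 lower in the second, where 9.62% and 8.16% were. In the second, 1 member was lower at an unadjusted P under 0.05 by edgeR's quasi-likelihood test and 0 at an adjusted P under 0.05 by DESeq2. The share of all genes at an unadjusted P is not given here. The difference of Jund in 4T1R1 did not pass the threshold with DESeq2. Over all genes the first difference split into 1237 higher and 1227 lower, and into 3536 and 419 when scaled by total counts alone. With that scaling the median of all genes was -0.114 in the response of 4T1, against 0.000645, and 0.146 in the first difference, against -0.00305, and the Fosl2 difference was then -0.235. Fosl1, Atf3 and Batf3 had differences between -0.368 and 0.238 in both, and Fosl2 one of -0.118 in 4T1R2, which did not pass the threshold.

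Before treatment both resistant populations differed from 4T1 in several members, and for 4T1R1 this cannot be told apart from its series of libraries. Junb was higher in both, by 0.88 ± 0.0473 on the log2 scale in 4T1R1 and 0.832 ± 0.0476 in 4T1R2, and so was Atf3, by 1.2 ± 0.116 and 0.994 ± 0.12. Jund was higher by 0.21 ± 0.0518 and 0.3 ± 0.052, with overlap between groups in 4T1R1, where its difference was 0.132 without untreated 4T1 replicate 1. Fos went in opposite directions, at -0.992 ± 0.139 in 4T1R1 and 0.842 ± 0.125 in 4T1R2. Fosb was lower in 4T1R1, at -1.12 ± 0.113, and 0.06 ± 0.106 in 4T1R2 did not pass the threshold. Fosl1 was higher in 4T1R1, by 0.308 ± 0.0664. Jun was lower there, at -0.182 ± 0.0508, but the groups overlapped, and without untreated 4T1 replicate 3 the value was -0.0838 and did not pass the threshold. Batf3 was lower in 4T1R2, at -0.75 ± 0.312, a call lost on leaving out any 1 of 4 libraries and in the fit of the 2 groups alone. Of the 9 members 4 were higher and 3 lower in 4T1R1, where 25.2% and 27.5% of all genes were, and 4 were higher and 1 lower in 4T1R2, where 25.6% and 26.9% were.

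The 2 resistant populations also differed from each other, most in Fos and Fosb, which cannot be told apart from the separate series of the 4T1R1 libraries. Untreated 4T1R2 exceeded untreated 4T1R1 by 1.83 ± 0.135 on the log2 scale for Fos, 1.18 ± 0.113 for Fosb and 0.206 ± 0.0511 for Jun, and the value of Fosl1 was -0.414 ± 0.0676. These 3 higher members and 1 lower stood beside 19.7% of all genes higher and 19% lower. Junb and Jund differed by -0.0476 ± 0.0459 and 0.0892 ± 0.0516, which did not pass the threshold.

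Ordered by group mean, Fos ran from untreated 4T1R2 through untreated 4T1, treated 4T1R2, untreated 4T1R1 and treated 4T1R1 down to treated 4T1, a range of 5.09 on the log2 scale of normalized counts plus 1. Untreated 4T1 overlapped treated 4T1R2, and the pair of 4T1R1 groups overlapped, whereas the other neighbours were apart. The order of Fosb was the same except that the 4T1R1 groups changed places. For Junb the 4 resistant groups came first, with untreated 4T1R1 and 4T1R2 overlapping, and the range was 2.63. Jun and Jund had ranges of 1.27 and 1.09, and their 3 untreated groups and treated 4T1R2 overlapped as neighbours. For Atf3 treated 4T1R1 was highest, the 4 resistant groups overlapped as neighbours and the step down to the 4T1 groups was clear, over a range of 1.37. Fosl1, Fosl2 and Batf3 had ranges of 0.414, 0.353 and 0.753.

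Levels of different genes were compared as normalized counts per kb of exon. Exon lengths came from GENCODE and not from the annotation used for counting, which limits this measure. Jund was the most abundant member in each group by this measure, with 40% to 49.7% of the summed level of the 9 genes. The sum was 7330 ± 641 (SD, n = 3) in untreated and 3716 ± 15.4 (SD, n = 2) in treated 4T1, 8789 ± 652 and 6442 ± 377 (SD, n = 3 each) in 4T1R1, and 9496 ± 295 and 7731 ± 302 (SD, n = 3 each) in 4T1R2. Treated libraries were below untreated ones in each population. Together Fos and Fosb made up 8.54% ± 1.5 of the sum in untreated and 1.92% ± 0.0978 in treated 4T1. In 4T1R1 their share was 3.46% ± 0.311 and then 4.43% ± 0.969, and in 4T1R2 9.39% ± 1.04 and then 7.28% ± 0.562. The share of Fosl1 and Fosl2 went from 10.6% ± 0.923 to 20.5% ± 0.327 in 4T1, while their level per kb was 773.9 ± 10.2 and 763.4 ± 8.99. It went from 10.1% ± 0.308 to 11.4% ± 0.448 in 4T1R1 and from 7.7% ± 0.134 to 9.38% ± 0.382 in 4T1R2.

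**Figure D3:**
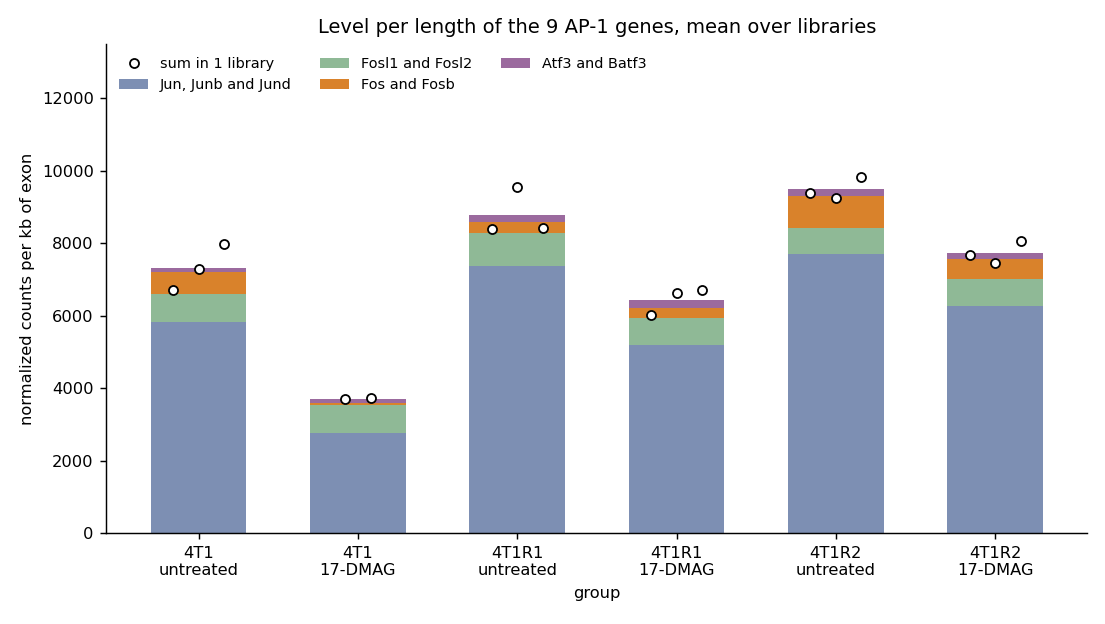
Normalized counts per kb of exon (vertical axis, from 0) of the 9 AP-1 genes in the 6 groups, stacked by subfamily as means over libraries; open circles are the sums in single libraries. The stack was 7330 in untreated and 3716 in treated 4T1, and the FOSL portion (green) kept its height there, at 773.9 and 763.4.

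Genes around the family were taken from lists of textbook genes, chosen with earlier results of these libraries known. The targets Il6, Ptgs2, Csf2 and Lif were in lists of that earlier work, so the P-values of Lif are a description. Of 40 genes known as AP-1 targets, 35 were tested. After 17-DMAG in 4T1, 9 (25.7%) were higher and 19 (54.3%) lower, where 18.4% and 17.9% of all genes were, with a median log2 fold change of -0.163. In 4T1R1 5 (14.3%) were higher and 19 (54.3%) lower, against 13.9% and 14.3% of all genes, with a median of -0.137. In 4T1R2 5 (14.3%) were higher and 3 (8.57%) lower, against 6.18% and 4.35%, with a median of -0.0125. Scaled by total counts alone, 3 targets were higher and 5 lower there, where 367 and 1146 of all 13507 genes were. The cytokine Lif fell from 1713 ± 47.1 to 825.9 ± 33.1 normalized counts in 4T1 (log2 fold change -1.05 ± 0.0529, adjusted P = 5.74e-20) and from 3309 ± 107 to 2133 ± 17.5 in 4T1R1 (-0.634 ± 0.0409, adjusted P = 8.71e-16). In 4T1R2 the value of Lif was 0.038 ± 0.0426 (adjusted P = 0.653). The difference of its response from that in 4T1 was 0.416 ± 0.0668 in 4T1R1 and 1.09 ± 0.0679 in 4T1R2 (adjusted P = 9.23e-06 and 2.15e-16). Dusp1, a phosphatase that switches MAP kinases off, fell in all 3 populations, in 4T1 by a log2 fold change of -1.01 ± 0.109 (adjusted P = 5.12e-10), in 4T1R1 by -0.416 ± 0.0935 (adjusted P = 0.000671) and in 4T1R2 by -0.548 ± 0.0862 (adjusted P = 1.51e-05). The difference of its response from that in 4T1 was 0.589 ± 0.144 in 4T1R1 and 0.457 ± 0.139 in 4T1R2 (adjusted P = 0.00254 and 0.017).

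Not all targets went down. Hmox1, the heme oxygenase induced by oxidative stress, rose from 388 ± 21.2 to 937.4 ± 35.2 normalized counts in 4T1 (log2 fold change 1.27 ± 0.0834, adjusted P = 3.17e-16), and the difference of its response from that in 4T1 was -1.14 ± 0.113 in 4T1R1 and -1.3 ± 0.112 in 4T1R2 (adjusted P = 2.44e-10 and 3.99e-12). Its own values there, 0.125 ± 0.0754 and -0.0301 ± 0.0743, did not pass the threshold. Il11 rose from 102.9 ± 11.1 to 252.2 ± 0.717 in 4T1 (1.29 ± 0.16, adjusted P = 1.21e-08) and rose in 4T1R2 (0.557 ± 0.174, adjusted P = 0.0314), and its value in 4T1R1 was 0.311 ± 0.15 (adjusted P = 0.123). The growth factor gene Hbegf rose in 4T1R1 (0.258 ± 0.0472, adjusted P = 4.66e-05) and 4T1R2 (0.343 ± 0.0494, adjusted P = 3.2e-06) and fell in 4T1 (-0.159 ± 0.0504, adjusted P = 0.0108). Untreated, the protease Mmp10 was lower in both resistant populations, at 1643 ± 102 normalized counts in 4T1, 299.1 ± 19.6 in 4T1R1 and 235.4 ± 19.8 in 4T1R2 (log2 differences of -2.46 ± 0.0733 and -2.81 ± 0.0776, adjusted P = 4.61e-28 and 3.29e-29). The protease gene Mmp9 was higher in both, by 0.967 ± 0.0558 in 4T1R1 and 1.23 ± 0.0558 in 4T1R2 (adjusted P = 2.49e-18 and 8.57e-22). Plau, which encodes the plasminogen activator urokinase, was lower in both, at -1.26 ± 0.0405 and -1.33 ± 0.0412 (adjusted P = 7.24e-27 and 1.54e-27). Of the 35 targets 13 (37.1%) were higher and 16 (45.7%) lower in untreated 4T1R1, against 25.2% and 27.5% of all genes, and 16 (45.7%) were higher and 17 (48.6%) lower in untreated 4T1R2, against 25.6% and 26.9%, with medians of -0.0929 and -0.0573.

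**Figure D4:**
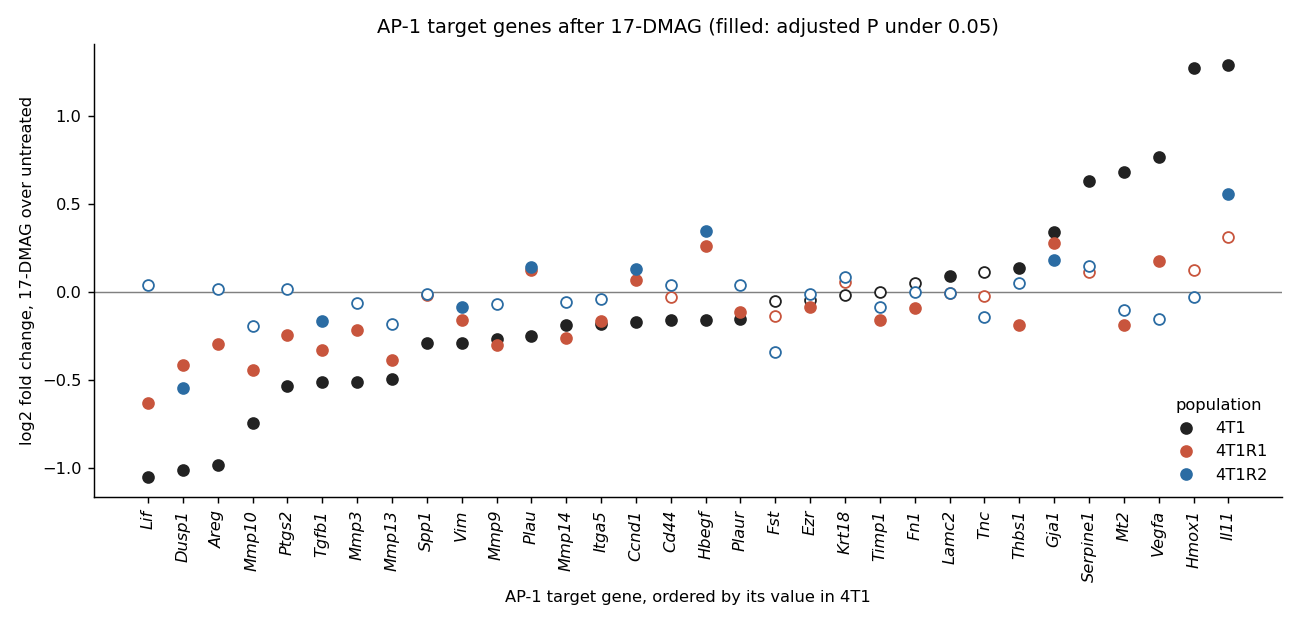
Fitted log2 fold change after 17-DMAG (vertical axis) of 32 AP-1 target genes in 4T1, 4T1R1 and 4T1R2, ordered by the value in 4T1; filled points had an adjusted P under 0.05, and 3 tested genes under 100 normalized counts in every group are not drawn. Values of 4T1 spread from Lif at -1.05 to Il11 at 1.29, and filled points in 4T1 outnumber those in 4T1R2.

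Among 8 tested relatives with a basic leucine zipper, Jdp2, a repressor that pairs with JUN and occupies AP-1 sites, rose in all 3 populations, in each of which the 3 JUN genes fell. It went from 377.3 ± 36 to 1178 ± 6.68 normalized counts in 4T1 (log2 fold change 1.64 ± 0.0861, adjusted P = 2.15e-19), from 468.5 ± 33 to 567.7 ± 19.2 in 4T1R1 (0.276 ± 0.0817, adjusted P = 0.00905) and from 294.4 ± 24.5 to 358.4 ± 34.6 in 4T1R2 (0.275 ± 0.0913, adjusted P = 0.0447). The response less that in 4T1 was -1.37 ± 0.119 in 4T1R1 and -1.37 ± 0.126 in 4T1R2 (adjusted P = 9.88e-12 and 2.92e-11). The call in 4T1R2 was lost in 3 other settings and on leaving out any of 8 samples, and that in 4T1R1 without untreated replicate 2. Atf2, whose protein pairs with JUN at TGACGTCA, fell in 4T1 from 3017 ± 60.9 to 2202 ± 122 (-0.452 ± 0.0467, adjusted P = 1.55e-10) and in 4T1R2 (-0.182 ± 0.0403, adjusted P = 0.00165), and its value in 4T1R1 was -0.0792 ± 0.0405 (adjusted P = 0.146). Of the 8 relatives 3 (37.5%) were higher and 1 (12.5%) lower in 4T1, against 18.4% and 17.9% of all genes. In 4T1R1 1 was higher and 1 lower (12.5% each), near the 13.9% and 14.3% of all genes, and in 4T1R2 2 (25%) were higher and 1 (12.5%) lower, against 6.18% and 4.35%, with medians of -0.00125, -0.0119 and 0.0267.

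Of 29 tested transcripts of kinases and promoter factors that act on FOS and JUN genes, 6 (20.7%) were higher and 10 (34.5%) lower in 4T1, against 18.4% and 17.9% of all genes. In 4T1R1 3 (10.3%) were higher and 10 (34.5%) lower, against 13.9% and 14.3%, and in 4T1R2 0 were higher and 1 (3.45%) lower, against 6.18% and 4.35%, with medians of -0.0549, -0.102 and -0.0379. Scaled by total counts alone, the counts in 4T1 were 1 higher and 17 lower, and in 4T1R2 9 were lower. That scaling also moved all 13507 genes, to 1193 higher and 4322 lower in 4T1 and 1146 lower in 4T1R2. At an unadjusted P under 0.05, edgeR's quasi-likelihood test gave 1 higher and 9 lower in 4T1R2. The share of all genes at that unadjusted threshold is not given here, so nothing is read from these counts. With DESeq2 and adjusted P-values 0 were higher there. Elk3, a ternary complex factor that acts with SRF, fell from 5267 ± 106 to 3792 ± 22.1 normalized counts in 4T1 (log2 fold change -0.474 ± 0.0372, adjusted P = 6.73e-14), and the kinase gene Rps6ka1 from 1879 ± 91.8 to 1371 ± 43.1 (-0.452 ± 0.0525, adjusted P = 2.64e-09). Both also fell in 4T1R1, Elk3 with a value of -0.128 ± 0.0331 (adjusted P = 0.00293) and Rps6ka1 with -0.225 ± 0.0449 (adjusted P = 0.000154), and their values in 4T1R2, -0.0783 ± 0.0327 and -0.0379 ± 0.0443, did not pass the threshold. Of 11 regulators of JUN and FOS proteins, 2 (18.2%) were higher and 3 (27.3%) lower in 4T1, against 18.4% and 17.9% of all genes. In 4T1R1 0 were higher and 2 (18.2%) lower, against 13.9% and 14.3%, and in 4T1R2 0 were called in either direction, against 6.18% and 4.35%, with medians of 0.0116, -0.00243 and 0.0128. At an unadjusted P under 0.05, edgeR's quasi-likelihood test gave 0 higher in 4T1R1 and 0 higher and 1 lower in 4T1R2, with the same limit. With DESeq2 and adjusted P-values 0 were higher in both and 0 lower in 4T1R2. Scaled by total counts alone, 0 were higher and 6 lower in 4T1, where 1193 of all 13507 genes were higher and 4322 lower. Men1, which encodes the JUND partner menin, fell in 4T1 (-0.25 ± 0.0499, adjusted P = 8.47e-05) and 4T1R1 (-0.193 ± 0.0454, adjusted P = 0.00111), and its value in 4T1R2 was -0.0237 ± 0.0446 (adjusted P = 0.813).

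For the members whose group means spanned at least 1 on the log2 scale, the genes of most similar profile were sought among 10638 genes, by the root mean square difference between profiles over the 6 groups, each centred on its mean. Fos was nearest to Bmf (0.737), Grhl3 (0.766) and Fosb (0.774), so that no gene followed its full range closely. Fosb was nearest to the Notch ligand gene Dll4 (0.356) and to Btg2 (0.388) and Egr3 (0.408), both known immediate early genes. Jun was nearest to Sox9 (0.0646), Scara5 (0.0904) and the immediate early gene Ier2 (0.1). Junb was nearest to Gdpd5 (0.149), Lrrc75b (0.164) and Smad6 (0.165), Jund to Rtkn (0.0568), Rin2 (0.0595) and Erf (0.0678), and Atf3 to Gmfg (0.0792), Igfbp7 (0.0956) and Parp12 (0.0984). These values describe 6 points each. With profiles scaled to unit SD, Btg2 and Egr3 were no longer among the nearest genes of Fosb, which then included Fos, nor Ier2 among those of Jun.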

How the data were processed

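RNA from 18 cultures of 4T1, 4T1R1 and 4T1R2 cells, untreated or treated with 17-DMAG, was depleted of ribosomal RNA and sequenced from stranded libraries. The authors aligned reads with STAR to GRCm38 and deposited counts per gene made with featureCounts of Subread 1.6.2, per the labels and the submitters' processing notes, which also name bcl2fastq 2.20. The strand setting and the handling of reads that map to several genes are not given in the sources used here. The series record calls the replicates biological.

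The deposited counts were tested with edgeR 4.0.16 (quasi-likelihood, TMM factors of 0.921 to 1.06, filterByExpr, R 4.3.3, limma 3.58.1). One fit held all 6 groups, and P-values were adjusted by the Benjamini-Hochberg method over 13507 genes. The common biological coefficient of variation was 0.0376. Totals ran from 23354461 to 55094630 counts. Treated 4T1 replicates 1 and 2 had a chi-square per gene of 1.1, against 2.04 to 2.22 in 17 other replicate pairs, over genes with 4 to 30 counts summed, and were averaged. Members and lists were chosen with earlier results of these data known, and 4 of the target genes (Il6, Ptgs2, Csf2 and Lif) were in lists of that earlier work. From each list and comparison, the text drew on the 3 genes of largest absolute change among those past the threshold whose higher group had a mean of 100 or more normalized counts. Exon lengths and positions came from GENCODE vM21 (GRCm38) and promoters from RefSeq, whereas the authors counted reads with annotation from UCSC. Fits were tested on simulated data. Alternatives were RLE scaling or total counts alone, other filters, DESeq2 1.42.0, a minimum of 1.5-fold, fits of the groups compared alone, 18 separate libraries, the replicate block and each library left out. Python 3.11.15 with matplotlib 3.10.9 made the plots.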

Additional observations from a re-analysis of the deposited data

Results flagged for a closer look

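Listed here are differences in response between a resistant population and 4T1 that passed the threshold over all genes, for members and for genes drawn from the lists. For the members, and for Lif among the list genes, the values are a description. In 4T1R1 less 4T1 they were 4.05 for Fos, 2.59 for Fosb, -0.385 for Fosl2, 0.992 for Jun, 1.1 for Junb and 0.305 for Jund on the log2 scale. In 4T1R2 less 4T1 they were 3.42 for Fos, 2.16 for Fosb, 0.94 for Jun, 1.55 for Junb and 0.445 for Jund. Both sets share the 4T1 libraries.

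Among the list genes the differences in 4T1R1 less 4T1 were -1.14 for Hmox1, -0.982 for Il11, -0.869 for Mt2, -1.37 for Jdp2, -0.526 for Mafg, 0.372 for Atf2, 0.347 for Elk3, -0.33 for Srf, 0.316 for Mapk14, 0.28 for Nr3c1 and -0.21 for Cops5 on the log2 scale. In 4T1R2 less 4T1 they were -1.3 for Hmox1, 1.09 for Lif, 0.996 for Areg, -1.37 for Jdp2, -0.41 for Mafg, 0.269 for Atf2, 0.415 for Rps6ka1, 0.396 for Elk3, -0.358 for Map2k5, 0.253 for Nr3c1 and 0.226 for Men1. Groups of 3 libraries were not searched for samples far from the others.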

How the results depend on the processing

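The direction of each call on a member was kept in every alternative, and of 252 values per comparison 243 to 251 stayed on their side of the threshold without moving beyond the spread. With a minimum change of 1.5-fold, 1 member was lower in 4T1R1 and 1 in 4T1R2, 2 were higher in untreated 4T1R1, 0 were lower in untreated 4T1R2 against 4T1R1 and 0 in the difference 4T1R1 less 4T1. Of all 13507 genes that minimum left 137 lower in 4T1R1, 45 lower in 4T1R2 and 1228 higher in untreated 4T1R1. It left 576 lower in untreated 4T1R2 against 4T1R1 and 202 lower in the difference. With the groups compared alone, 0 members were lower in untreated 4T1R2 against 4T1, where 3553 of 12669 genes tested were. Leaving out each sample gave 0 to 1 there and 1 to 2 in untreated 4T1R2 against 4T1R1. Counts over all genes in those fits are not given here, so nothing is read from these ranges. Jun in untreated 4T1R2 passed the threshold at 0.122 without untreated 4T1 replicate 3, Fosl1 in 4T1 at -0.194 with total counts alone, and between the untreated resistant populations Fosl2 at -0.111 without 4T1R2 replicate 3, Jund at 0.165 without 4T1R1 replicate 2 and Atf3 at -0.297 without 4T1R2 replicate 2. The causes were not tested.

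Of the AP-1 targets, with the minimum of 1.5-fold, 5 were lower in 4T1, 0 higher and 2 lower in 4T1R1, 0 in either direction in 4T1R2, 8 higher and 6 lower in untreated 4T1R1, and 8 higher and 11 lower in untreated 4T1R2. Of all 13507 genes that minimum left 491 lower in 4T1, 124 higher and 137 lower in 4T1R1 and 45 each way in 4T1R2. It left 1228 higher and 568 lower in untreated 4T1R1, and 1010 and 779 in untreated 4T1R2. With total counts alone 3 targets were higher and 5 lower in 4T1R2. All genes then split into 1193 higher and 4322 lower in 4T1, 2356 and 1316 in 4T1R1, and 367 and 1146 in 4T1R2. Leaving out samples gave 2 to 5 higher in 4T1R1, and 3 to 6 higher and 1 to 4 lower in 4T1R2. Of the bZIP relatives, the 1.5-fold minimum left 1 higher and 0 lower in 4T1 and 0 in 4T1R1 and 4T1R2. In 4T1 2 were lower with total counts alone, with at least 10 counts in every library and with 18 separate libraries, and in 4T1R1 2 with that filter. In 4T1R2 0 were higher with total counts alone and 1 with the groups compared alone. Leaving out samples gave 1 to 2 lower in 4T1, 0 to 1 higher and 1 to 2 lower in 4T1R1, and 0 to 2 higher in 4T1R2. Of the upstream genes, total counts alone gave 1 higher and 17 lower in 4T1, 6 higher in 4T1R1 and 9 lower in 4T1R2, DESeq2 gave 3 higher in 4T1, the 1.5-fold minimum gave 0 throughout, no filter gave 1 higher in 4T1R2, and the groups compared alone gave 1 higher and 2 lower there. Leaving out samples gave 2 to 6 higher in 4T1 and 0 to 1 higher and 0 to 2 lower in 4T1R2. Of the regulators, total counts alone gave 0 higher and 6 lower in 4T1, 1 lower in 4T1R1 and 1 lower in 4T1R2, and the 1.5-fold minimum 0 in 4T1 and 4T1R1. Leaving out samples gave 1 to 2 higher in 4T1 and 1 to 3 lower in 4T1R1. Counts over all genes on leaving out samples are not given here, so nothing is read from the ranges of list genes. Of 2436 values of named list genes, 2325 kept their side and 111 fell short of the threshold.

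Per kb of the longest transcript, the summed level was 8181 and 4091 in untreated and treated 4T1, 9857 and 7211 in 4T1R1 and 10680 and 8742 in 4T1R2, and 3436 in treated 4T1 with total counts alone. The share of Fos and Fosb was then 10.6%, 2.68%, 4.24%, 5.55%, 11% and 8.76% in the same order, and that of Fosl1 and Fosl2 11.9%, 23.6%, 11.2%, 12.6%, 8.62% and 10.4%. With profiles scaled to unit SD, 1 of the 3 nearest genes was shared for Jun and Jund and 0 for Fos, Fosb, Junb and Atf3.

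Replicate numbers did not pair the samples, with correlations of same-numbered deviations from -0.0516 to 0.0496 over 45 pairs and 6 of 18 libraries closest to their own number. With the replicate block 2760 genes were higher and 2782 lower in 4T1, against 2789 and 2802 in 18 separate libraries without it. In 4T1R1 the block gave 1892 higher and 1944 lower, and in 4T1R2 849 and 591. Of the members 0 were higher and 5 lower in each of the 3 populations, from which nothing is read, since they were selected on these contrasts. With total counts alone the split over all genes was 1193 higher and 4322 lower in 4T1, against 2490 and 2423, 2356 and 1316 in 4T1R1, against 1874 and 1938, 367 and 1146 in 4T1R2, against 835 and 588, and 2091 and 631 in the difference 4T1R2 less 4T1, against 1299 and 1102. With the minimum of 1.5-fold 458 genes were higher and 491 lower in 4T1, 124 and 137 in 4T1R1 and 45 and 45 in 4T1R2. Counts limit Batf3 most, at 17.54 to 56.73 normalized counts.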
